A study of Mus musculus with 16 samples.

Results

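The comparison described here is that of Glud1-deficient (KO) with wild-type (WT) macrophages taken from CTX-injected muscle. It rests on the 4 KO and 4 WT libraries whose labels name that tissue, 8 of the 16 libraries of the series, and genotype labels alone chose them. RNA of F4/80-positive cells sorted from mouse muscle was amplified as full-length cDNA and sequenced. Injured muscle was collected when damage was greatest, and the remaining 8 libraries (4 KO, 4 WT) came from normal, undamaged muscle. The labels give no age, strain, sex or time after injection, expand neither the abbreviation CTX nor the genetic construct, and do not name the exons removed or a Cre driver. Whether the libraries of a group stem from different mice is not stated, and the p-values therefore reflect library-to-library spread that may be technical.

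Glud1 encodes glutamate dehydrogenase, a mitochondrial enzyme that turns glutamate into 2-oxoglutarate and ammonium and so feeds glutamine-derived carbon into the TCA cycle. Glul, glutamine synthetase, runs from glutamate in the other direction, to glutamine. After injury, muscle is entered by monocytes that become macrophages, clear debris and secrete cytokines and growth factors, first with inflammatory (M1) and later with reparative (M2) traits. The study set out to compare M1, M2 and wound healing genes between the genotypes.

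Library totals in injured muscle were 19842999 to 23097420 counts, and 14434 to 14886 genes had at least 1 count. Levels are in CPM, the reads of a gene scaled to the same library total in every library, corrected with TMM factors of these 8 libraries. Amplified reads carried no molecular identifiers, so these counts bound counting error only. Defining macrophage genes were high in all 8 libraries: Csf1r at 1253 to 1455 CPM in WT and 1299 to 1404 in KO, Cd68 at 1182 to 1385 and 1266 to 1395, and Adgre1, which encodes F4/80, at 495 to 1022 and 555 to 940.0. The ranges of these 3 genes overlapped between the genotypes. WT libraries 1 and 2 were the most alike of all pairs within a group, with a chi-square of 6.03 per degree of freedom, followed by KO libraries 3 and 4 at 7.31, while the other pairs lay between 13 and 65.5. WT libraries 1 and 2 also had the lowest scores on the first principal component, which held 25.9% of the variance. By Y-linked genes and Xist, all 8 libraries came from males.

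The targeted transcript was measured in every library first. Glud1, which spans 34310727 to 34345265 of chromosome 14 on the plus strand (mm10), lay at 312, 309.8, 283 and 292 CPM in WT libraries 1 to 4 and 267, 269, 287 and 281 CPM in KO libraries 1 to 4. The KO values spanned 267 to 287 CPM and overlapped the WT values, with WT library 3 below KO library 3. The log2 difference (KO minus WT throughout) was -0.12 with a 95% interval of -0.25 to 0.02, an edgeR adjusted p of 0.536 and an exact permutation p of 0.0571. A count over the whole gene checks no label where the deleted part is not given, since a transcript that lacks an exon can still be counted. Glul lay at 57.8 ± 3.92 CPM in WT and 53.7 ± 3.1 CPM in KO (SD, n = 4 each), a log2 difference of -0.11 (95% interval -0.27 to 0.05, edgeR adjusted p = 0.641), and its libraries overlapped between the genotypes.

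**Figure D1:**
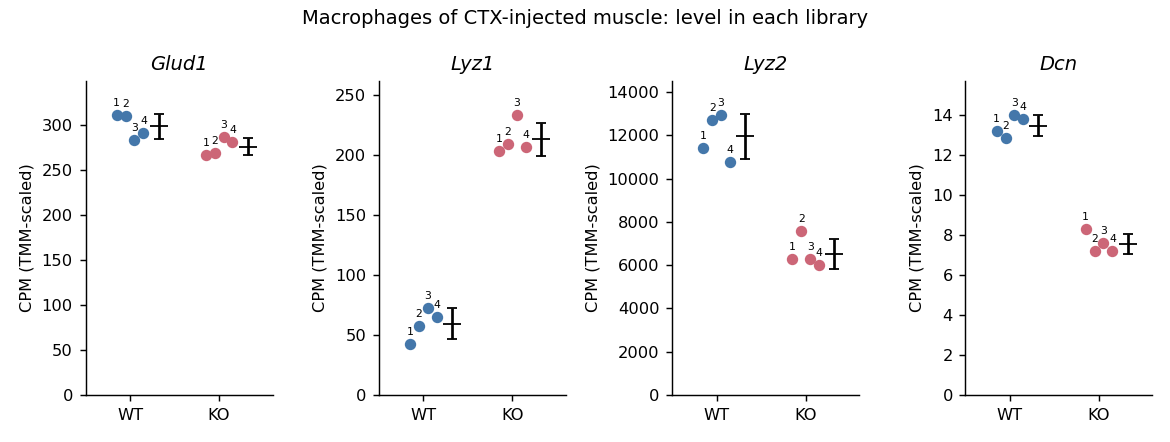
Level of Glud1, Lyz1, Lyz2 and Dcn in each library of CTX-injected muscle, as TMM-scaled CPM on linear axes that start at 0. Points are libraries numbered 1 to 4, and bars give the mean ± SD of 4 libraries. Glud1 overlaps between the genotypes, and the other genes do not.

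Over the whole transcriptome few genes differed between the genotypes at edgeR's adjusted threshold. Of 11473 genes that passed edgeR's low-count filter, 1 rose in KO (0.00872% of tested genes) and 2 fell (0.0174%) at an adjusted p under 0.05: Lyz1 rose, and Lyz2 and Dcn fell. At an unadjusted p under 0.05, 547 genes were higher in KO (4.77%) and 608 lower (5.30%). With library totals as the only scaling these numbers were 1000 and 299, as the median of all genes then lay at 0.07, so the balance of the 2 directions depends on the scaling. Groups did not overlap in 314 genes that were higher in KO (2.74%) and 333 that were lower (2.90%). The median log2 difference of all tested genes was 0.00, and 9 in 10 genes lay between -0.38 and 0.47. For the 7234 genes with a mean of at least 10 CPM the median standard error of the log2 difference was 0.09. The number of calls depended on the test, as 44 rose and 60 fell with DESeq2 and 12 rose and 7 fell with limma voom with sample weights, and the 3 genes called by edgeR were called by both.

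**Figure D2:**
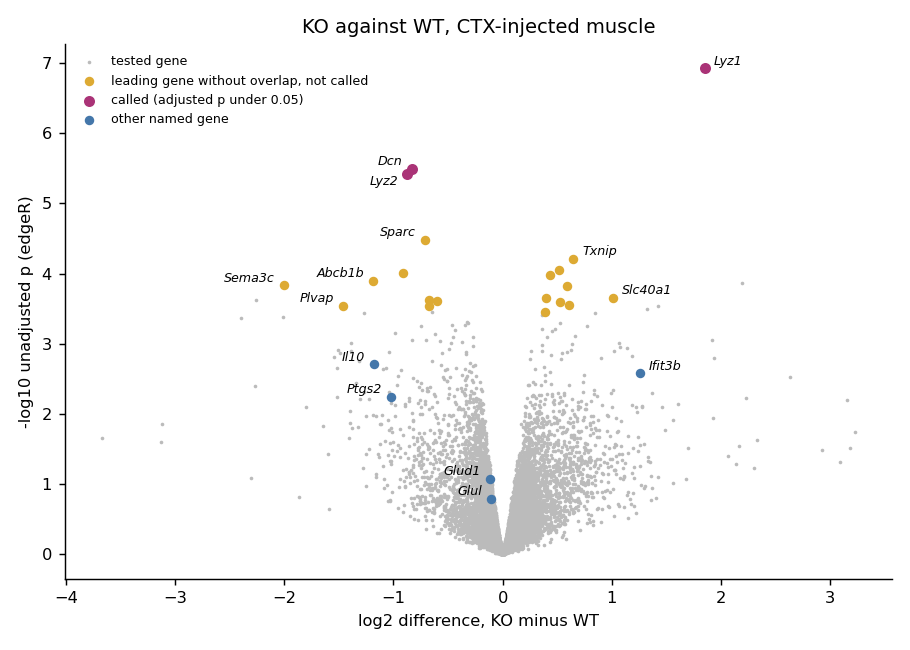
Each point is 1 of 11473 tested genes, with the log2 difference (KO minus WT) on the x axis and the -log10 of the unadjusted edgeR p on the y axis. Lyz1, Lyz2 and Dcn pass the adjusted threshold, the other leading genes without overlap lie below them, and Glud1 and Glul lie near the bottom.

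The strongest difference was in the lysozyme gene pair. Lyz2 is the lysozyme of macrophages and neutrophils, and Cre inserted at its locus is a common driver in myeloid cells, although the labels do not say which driver was used. Lyz1 is its close copy, best known from Paneth cells of the intestine. Lyz1 lay at 42.1, 57.4, 72.3 and 65 CPM in WT libraries 1 to 4 and 203, 209.5, 234 and 207 CPM in KO libraries 1 to 4. Every KO library was above every WT library, and the mean went from 59.2 ± 12.9 to 213 ± 13.8 CPM (SD, n = 4 each), a log2 rise of 1.85 (95% interval 1.53 to 2.17, edgeR adjusted p = 0.00137). Lyz2 lay at 11431, 12689, 12957 and 10771 CPM in WT libraries 1 to 4 and 6276, 7556, 6289 and 6015 CPM in KO libraries 1 to 4. All 4 KO libraries were below all 4 WT libraries, and Lyz2 fell by 0.87 on the log2 scale (95% interval -1.09 to -0.65, edgeR adjusted p = 0.0148). Lyz1 reads made up 0.37% to 0.60% of the reads of both genes in WT and 2.70% to 3.58% in KO. The exact permutation p of each was 0.0286, the smallest that 4 against 4 libraries can give.

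The genes lie next to each other on the minus strand of chromosome 10 (mm10), Lyz2 at 117277331 to 117282321 and Lyz1 at 117287797 to 117292868. Their coding sequences, each of 444 bases without the stop codon in GENCODE M21, are identical at 422 positions (95%). The first 90 coding bases of each are shown because they tell how a read can be placed on 1 of the 2 genes, with the 7 bases that differ in capitals.
Lyz1: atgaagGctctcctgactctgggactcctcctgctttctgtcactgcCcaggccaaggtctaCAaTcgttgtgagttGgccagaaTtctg
Lyz2: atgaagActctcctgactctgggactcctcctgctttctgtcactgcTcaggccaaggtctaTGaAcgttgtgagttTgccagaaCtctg
Of all windows of the Lyz1 transcript, 42.2% of those of 25 bases, 16.1% of 50 bases, 6.22% of 75 bases and 2.06% of 100 bases also occur in Lyz2. How reads that fit both genes were counted is not given, so the level of Lyz1 is uncertain by any reads it shared with the far more abundant Lyz2, and the part of such reads was not tested. Lyz1 and Lyz2 moved in opposite directions. The nearest other tested genes on chromosome 10 had log2 differences of -0.05 (Frs2), -0.06 (Yeats4), -0.13 (Cpsf6) and 0.14 (Cpm), with edgeR adjusted p of 0.490 or more. Lyz1 stayed called in each of the 17 alternative analyses, with log2 values of 1.64 to 2.01. The call of Lyz2 was lost in 8 of them, including those without WT library 1 or 2 or KO library 1, 3 or 4, where the adjusted p was 0.0713 to 0.137, while its log2 value stayed between -0.94 and -0.80.

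Dcn, which encodes the collagen-binding proteoglycan decorin of fibroblasts, was the other gene that fell. Its gene spans 97479609 to 97518143 of chromosome 10 on the plus strand (mm10). Decorin transcripts were at 13.2, 12.9, 14 and 13.8 CPM in WT libraries 1 to 4 and 8.28, 7.2, 7.59 and 7.21 CPM in KO libraries 1 to 4. The lowest WT library stood at 12.9 and the highest KO library at 8.28 CPM, and the log2 difference was -0.83 (95% interval -1.03 to -0.63, edgeR adjusted p = 0.0148). Without WT library 1 or 2 or KO library 2, 3 or 4 the call was lost (edgeR adjusted p of 0.0713 to 0.120), as it was in 3 other alternatives, and the log2 value stayed between -0.88 and -0.77 in all alternatives. In bulk RNA of sorted cells, fewer cells of a type and less RNA per cell cannot be told apart.

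Some markers of stromal and vascular cells were also lower in KO. Among the fibroblast, endothelial and mural lists edgeR called Dcn alone, and DESeq2 called Col3a1 and Tie1 as well. Of 9 tested fibroblast markers, 4 were lower in KO at an unadjusted p under 0.05 (Col3a1, Dcn, Lum and Pdgfra; 44.4%, against 5.30% of all tested genes) and none was higher. The list's median log2 difference was -0.41, and its summed level was 89.1 to 105 CPM in WT and 73.8 to 86.5 CPM in KO, ranges that did not overlap. Col3a1, a fibrillar collagen chain, lay at 25.4, 22.8, 26 and 32.6 CPM in WT libraries 1 to 4 and 21.7, 17.1, 16.2 and 17.6 CPM in KO libraries 1 to 4, with no overlap (log2 -0.56, edgeR adjusted p = 0.214). Of 12 endothelial markers, 7 were lower at an unadjusted p under 0.05 (Tek, Tie1, Esam, Cldn5, Vwf, Emcn and Egfl7; 58.3%) and 1, the VEGF receptor gene Kdr, was higher, with a list median of -0.65. Tie1, a receptor kinase of vessel lining cells, lay at 4.34, 3.31, 2.38 and 2.02 CPM in WT libraries 1 to 4 and 1.32, 1.19, 1.05 and 1.75 CPM in KO libraries 1 to 4 (log2 -1.18, edgeR adjusted p = 0.254). The summed endothelial level overlapped between the genotypes, at 68.9 to 81 CPM in WT and 62 to 78.3 CPM in KO, and Kdr made up a large share of it, at 10.5 to 20.9 CPM in WT and 18.8 to 30 CPM in KO. In the mural list 3 of 7 tested markers were lower and none higher (Acta2, Pdgfrb and Des; 42.9%, median -0.58), and the sum was 14.9 to 21.1 CPM in WT and 13.5 to 14.2 CPM in KO, also without overlap. Des is not particular to mural cells, as it was also the 1 lower gene among 3 tested satellite cell and myoblast markers. No marker of the fibroblast, endothelial and mural lists was at 0 in all 8 libraries. With a filter of 5 CPM in 4 libraries, which keeps few of its members, the endothelial median was -0.05, and without WT library 1 the mural median was -0.29. With single libraries left out, 3 to 6 fibroblast markers (6 without WT library 1), 6 or 7 endothelial markers and 1 to 3 mural markers (1 without WT library 1 or 3 or KO library 4) were lower. All of these stromal and vascular transcripts were scarce beside macrophage genes, and what part they have in the fall of Dcn was not tested.

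A further 17 genes led the ranking among those whose groups did not overlap and whose higher mean reached 5 CPM, none of them called by edgeR (adjusted p of 0.0951 to 0.155). All 17 were called by DESeq2, and 11 by limma voom. On the lower side, 4 encode matrix or vessel products. Sparc, a collagen-binding matrix glycoprotein, lay at 21.2, 23.4, 23.9 and 18.9 CPM in WT libraries 1 to 4 and 12.7, 12.9, 15 and 12.8 CPM in KO libraries 1 to 4. Igfbp7, a secreted protein abundant around vessels, lay at 14.2, 15.7, 16.8 and 12.7 CPM in WT libraries 1 to 4 and 7.95, 9.26, 9.1 and 10.9 CPM in KO libraries 1 to 4. Plvap, which forms the diaphragms of endothelial fenestrae, lay at 4.92 to 10.1 CPM in WT and 1.88 to 3.39 in KO, and Adamts1, a matrix metalloprotease, at 10.2 to 15.6 and 5.75 to 7.22 CPM. The log2 differences of these 4 genes were -0.71, -0.67, -1.46 and -0.91.

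The other lower genes of this group are signalling and transport genes. Abcb1b, a drug efflux pump of the P-glycoprotein family, lay at 67.8, 66.7, 39.2 and 37.2 CPM in WT libraries 1 to 4 and 24, 20.6, 25.4 and 23 CPM in KO libraries 1 to 4. WT libraries 1 and 2 were the highest, and WT libraries 3 and 4 still stood above all KO libraries (log2 -1.18, 95% interval -1.62 to -0.74). Sema3c, a secreted semaphorin, had the largest difference of the 20 leading genes, at 38.2, 40.9, 32 and 16.6 CPM in WT libraries 1 to 4 and 13.2, 8.34, 5.03 and 5.42 CPM in KO libraries 1 to 4 (log2 -2.0, 95% interval -2.76 to -1.24, edgeR adjusted p = 0.144). Il1r1, the signalling receptor for interleukin 1, lay at 40.9 to 54.4 CPM in WT and 26.7 to 36.1 in KO (log2 -0.67), and Errfi1, a feedback inhibitor of the EGF receptor, at 359 to 512 and 272 to 329 CPM (log2 -0.60).

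Of these 17 genes, those higher in KO had log2 differences of 0.65 or less apart from Slc40a1. Slc40a1 encodes ferroportin, the only known iron exporter of macrophages, and lay at 6.24, 4.78, 3.57 and 4.21 CPM in WT libraries 1 to 4 and 9.08, 8.66, 8.5 and 11.6 CPM in KO libraries 1 to 4 (log2 1.01, 95% interval 0.61 to 1.41, edgeR adjusted p = 0.151). Txnip, which binds thioredoxin and restrains glucose uptake, lay at 66, 64.9, 75.8 and 83.1 CPM in WT libraries 1 to 4 and 105, 108, 110.4 and 130.4 CPM in KO libraries 1 to 4 (log2 0.65, edgeR adjusted p = 0.14). KO library 4 was the highest for both. Camkk2, a calmodulin-dependent kinase that activates AMPK, stood at 44.5 to 53.2 CPM in WT and 61.4 to 68.5 in KO, and Ccnd3, cyclin D3, at 24.5 to 34.3 and 41.2 to 47.6. Nub1, which lowers NEDD8 conjugates, Ptpro, a receptor tyrosine phosphatase, Sh2d3c, an SH2 adaptor, Zfp53, a zinc finger gene, and Smchd1, a chromatin protein of X inactivation, had log2 differences of 0.51, 0.40, 0.52, 0.61 and 0.39.

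The M1, M2 and wound healing lists, which the study names as its subject, held no gene that edgeR called. Of 24 M1 genes, 3 were lower in KO at an unadjusted p under 0.05 (12.5%, against 5.30% of tested genes) and 1 higher (4.17%, against 4.77%), with a list median of -0.16 that was 0.17 with voom. The balance turned on single libraries: without WT library 3 there were 4 higher and 1 lower with a median of 0.11, without WT library 4 there were 7 lower, and without KO library 4 there was 1 lower and none higher. Ptgs2, the inducible cyclooxygenase of prostaglandin synthesis, lay at 3486, 3794, 6215 and 1894 CPM in WT libraries 1 to 4 and 2360.3, 2024, 1588 and 1586 CPM in KO libraries 1 to 4 (log2 -1.03, edgeR adjusted p = 0.351). Il1a, an interleukin 1 gene, lay at 592, 729.9, 1481 and 439 CPM in WT libraries 1 to 4 and 599.8, 527, 378 and 385 CPM in KO libraries 1 to 4 (log2 -0.78). In both genes WT library 3 was far above the other WT libraries and WT library 4 lay inside the KO range, as did WT library 1 for Il1a. Nos2, the inducible nitric oxide synthase and the textbook M1 gene, lay at 1.63, 0.804, 139.7 and 12.2 CPM in WT libraries 1 to 4 and 17.1, 21.2, 2.01 and 10.4 CPM in KO libraries 1 to 4, a range of over 100-fold among WT libraries alone, and the difference had a log2 value of -1.59 with a 95% interval of -4.35 to 1.17. Cxcl9, an interferon-gamma-induced chemokine and the higher M1 gene, rested on KO library 4, at 11.3 CPM against 0.72 CPM or less in the other 7 libraries.

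Of 24 M2 genes, 3 were lower in KO at an unadjusted p under 0.05 (12.5%) and 2 higher (8.33%), and the median was -0.10. With single libraries left out, 2 to 5 were lower and 1 to 5 higher, with 5 lower without WT library 3 and 5 higher without WT library 4. Il10, the anti-inflammatory cytokine, lay at 413, 423, 773 and 231 CPM in WT libraries 1 to 4 and 211, 209, 217 and 179 CPM in KO libraries 1 to 4. All KO libraries were below all WT libraries, with WT library 3 the highest and KO library 4 the lowest (log2 -1.17, 95% interval -1.81 to -0.54, edgeR adjusted p = 0.26). Without WT library 4, Il10 was among 30 genes called lower. Il4ra, the receptor chain for interleukins 4 and 13, lay at 451 to 540.3 CPM in WT and 414 to 459 in KO (log2 -0.27), and the chemokine gene Ccl24 lay at 86.1 to 147 and 119 to 407 CPM (log2 0.96). Arg1, arginase 1, and Mrc1, the mannose receptor, overlapped between the genotypes, with log2 intervals of -0.43 to 0.98 and -0.50 to 0.29.

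Of 29 tested wound healing genes, 5 were lower in KO at an unadjusted p under 0.05 (Vegfa, Hbegf, Areg, Thbs1 and Mmp2; 17.2%) and 1 higher (Mmp12; 3.45%), and none had groups without overlap. The list median was -0.02, and 0.05 with library totals as the only scaling. With single libraries left out, 2 to 6 were lower, with 2 without WT library 2 or KO library 4, and 0 to 3 higher. Areg, amphiregulin, an EGF receptor ligand, lay at 53.3, 55.4, 125 and 28.5 CPM in WT libraries 1 to 4 and 29.6, 29.4, 29.3 and 23.8 CPM in KO libraries 1 to 4 (log2 -1.23, edgeR adjusted p = 0.351). Here too WT library 3 stood at the top. Hbegf, another ligand of that receptor, lay at 24.9 to 48.9 CPM in WT and 21.2 to 25 in KO (log2 -0.55), and Mmp12, macrophage elastase, at 40 to 77.8 and 53.4 to 113 CPM (log2 0.72).

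Among enzymes that link glutamate with 2-oxoglutarate, none of the 10 tested members passed an unadjusted p under 0.05 in either direction, and the list median was -0.03. There was 1 lower with voom and without WT library 3, and 1 higher without WT library 4 and without WT libraries 1 and 2. After Glud1 the members of smallest p were Psat1, a transaminase of serine synthesis (log2 0.17, 95% interval -0.10 to 0.45), and Oat, ornithine aminotransferase (log2 -0.07, -0.19 to 0.06; 0.00 and above 0 with library totals as the only scaling). The aspartate transaminase gene Got2 had an interval of -0.12 to 0.17. Summed over the 10 genes the level was 743 to 913 CPM in WT and 784 to 869 CPM in KO.

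Genes of glutamine synthesis and use showed small differences. Of 14 tested, 3 were lower at an unadjusted p under 0.05 (21.4%) and 1 higher (Aldh4a1; 7.14%), none called, with a median of -0.06 that was 0.00 with library totals as the only scaling, where 1 was lower. With single libraries left out 1 or 2 were lower, with 1 without KO library 2. Aldh4a1, which makes glutamate from a proline breakdown product, lay at 10.5, 11.7, 11.4 and 11 CPM in WT libraries 1 to 4 and 12.4, 13.5, 13.6 and 13 CPM in KO libraries 1 to 4 (log2 0.23). Gfpt2, of hexosamine synthesis, and Ctps, of CTP synthesis, both use glutamine and had log2 differences of -0.46 and -0.36. The summed level of the list was 547 to 604 CPM in WT and 503 to 539 CPM in KO, without overlap.

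Of 15 tested glutamine and glutamate transporters, 3 were lower at an unadjusted p under 0.05 (20%) and none higher, with a median of -0.11. With single libraries left out 2 to 5 were lower, with 5 without WT library 3 or 4, and 1 was higher without WT library 1 or 4. In the 16-library fit 0 were lower, and with library totals as the only scaling 2 were. Slc38a1, a sodium-coupled glutamine importer, lay at 226, 241, 317 and 209 CPM in WT libraries 1 to 4 and 187, 184, 192 and 178 CPM in KO libraries 1 to 4, without overlap (log2 -0.42, 95% interval -0.68 to -0.16, edgeR adjusted p = 0.351). Slc7a11, the cystine and glutamate exchanger, lay at 1335, 1310.2, 1108 and 771 CPM in WT libraries 1 to 4 and 905, 757, 600.4 and 670.3 CPM in KO libraries 1 to 4. WT library 4 lay within the KO range, and the log2 difference was -0.63 (edgeR adjusted p = 0.351, called by DESeq2). Slc38a2, a related glutamine importer, had a log2 difference of -0.25, and Slc1a5, a main glutamine carrier of many cells, one of -0.10 (95% interval -0.38 to 0.18).

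**Figure D3:**
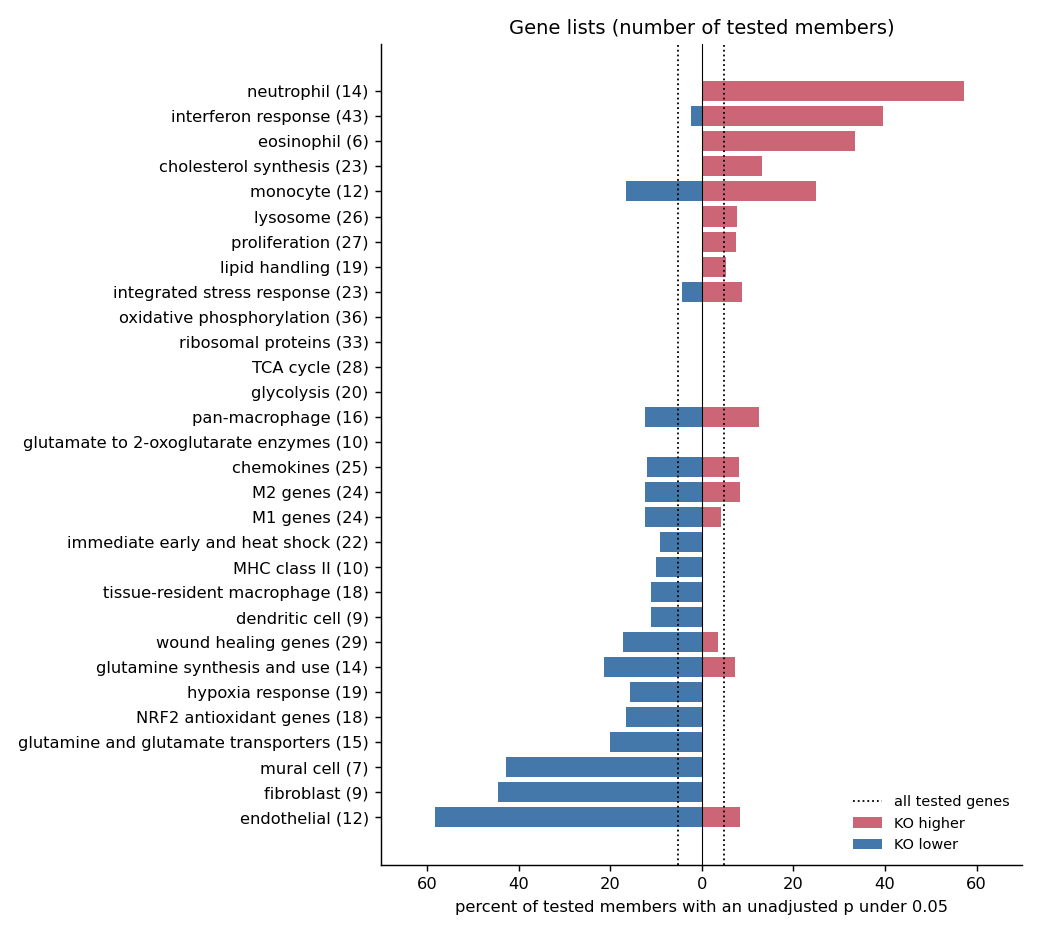
Percent of the tested members of each gene list with an unadjusted edgeR p under 0.05, higher in KO to the right and lower to the left, with the number of tested members in brackets. Dotted lines mark the shares among all 11473 tested genes (4.77% higher, 5.30% lower). The neutrophil and interferon lists extend furthest to the right and the endothelial, fibroblast and mural lists furthest to the left.

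The interferon-response list held many members that were higher in KO, and their number depended on single libraries. Of 43 tested members, 17 were higher in KO at an unadjusted p under 0.05 (39.5%, against 4.77% of tested genes) and 1, Ifi44, was lower. In the fit of all 8 libraries none was called by edgeR, with a smallest adjusted p of 0.293, and DESeq2 called 2. A total of 10 members were higher without overlap (against 2.74% of tested genes), and the list median was 0.68. Ifit3, an antiviral protein with tetratricopeptide repeats, lay at 3.21, 2.64, 14.5 and 12.6 CPM in WT libraries 1 to 4 and 23.2, 21.6, 15.4 and 14.8 CPM in KO libraries 1 to 4. WT libraries 1 and 2 were low, and WT libraries 3 and 4 stood just under KO libraries 3 and 4. Stat2, which carries the type I interferon signal to the nucleus, lay at 24.1, 21.9, 43.4 and 42.6 CPM in WT libraries 1 to 4 and 61, 49.9, 51.1 and 55.3 CPM in KO libraries 1 to 4 (log2 0.72, 95% interval 0.25 to 1.19). Irf7, the factor that amplifies interferon genes, lay at 83.7, 73.7, 289.6 and 282 CPM in WT libraries 1 to 4 and 499, 480.0, 268 and 278 CPM in KO libraries 1 to 4, with KO libraries 1 and 2 on top and KO libraries 3 and 4 level with WT libraries 3 and 4.

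For Ifit3 and Stat2 the widest gap lay between WT libraries 1 and 2 and the other 6 libraries. Without these 2 libraries, a choice made once the values had been seen, the list median was 0.15, with 8 members higher and 4 lower at an unadjusted p under 0.05. Without WT library 3 the number higher was 42 of 43, without WT library 4 it was 24, and without any other single library it was 5 to 13. With library totals as the only scaling it was 25, with voom 39 and with DESeq2 12. Some members had their highest level in WT library 3, such as Oasl1, which lay at 25.4, 15, 454 and 82.2 CPM in WT libraries 1 to 4 and 112, 137, 61.2 and 70.1 CPM in KO libraries 1 to 4, and Ifit1, at 7.5, 4.65, 117 and 20.6 CPM in WT libraries 1 to 4 and 29.1, 29.5, 20.6 and 20.3 CPM in KO libraries 1 to 4. Ifi44, an interferon-induced gene of unclear function, lay at 0.226, 0, 65.8 and 63.3 CPM in WT libraries 1 to 4 and 3.2, 3.1, 1.69 and 2.18 CPM in KO libraries 1 to 4. Without WT libraries 1 and 2, edgeR called Ifi44 and Ifi44l lower in KO. In normal muscle too the level of Ifi44 varied within each genotype, at 22.7, 2.32, 3.20 and 5.36 CPM in the WT and 52.9, 36.5, 36.3 and 2.92 CPM in the KO libraries (scaled over all 16 libraries). The part of the closeness of WT libraries 1 and 2 in this pattern was not tested.

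Because the members varied together between libraries, their promoters were searched for the interferon-stimulated response element, the site that the interferon-activated complex of STAT2 and IRF9 binds, as TTTCNNTTTC on either strand in the 250 bases before the start of the gene (RefSeq, GRCm38.p6). It was present in 17 of the 31 tested members with a promoter entry (54.8%) and in 7 of 12 of those higher in KO (58.3%), against 301 of 8830 tested genes (3.41%) and 936 of 27025 genes in all (3.46%). The search was chosen after the list's values were seen, and a match describes letters and not binding. The list was made of interferon-response genes, so a share above that of all genes was fixed by its making. This share therefore bears neither on the genotypes nor on the shared variation between libraries. Members higher in KO had about the same share as the whole list. A stretch of 50 bases around the match is shown for 5 members that were higher in KO, since it is the sequence feature they share, with the match in capitals.
Ifit3: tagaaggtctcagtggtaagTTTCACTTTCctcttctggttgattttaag
Stat2: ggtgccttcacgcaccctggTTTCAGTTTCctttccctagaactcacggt
Oas3: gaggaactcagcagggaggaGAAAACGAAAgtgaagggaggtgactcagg
Trim30a: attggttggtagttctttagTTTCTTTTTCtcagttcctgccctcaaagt
Gbp3: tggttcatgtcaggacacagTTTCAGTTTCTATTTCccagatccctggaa
These stretches lie at chr19:34583353-34583402 (plus strand) for Ifit3, chr10:128270256-128270305 (plus) for Stat2, chr5:120777705-120777754 (minus) for Oas3, chr7:104465200-104465249 (minus) for Trim30a and chr3:142559979-142560028 (plus) for Gbp3. The stretch of Ifit3 is identical to that of Ifit3b, its near copy, so the 2 are not independent examples, and reads of these genes may be shared. No match was found in the promoter windows of Lyz1 and Lyz2.

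**Figure D4:**
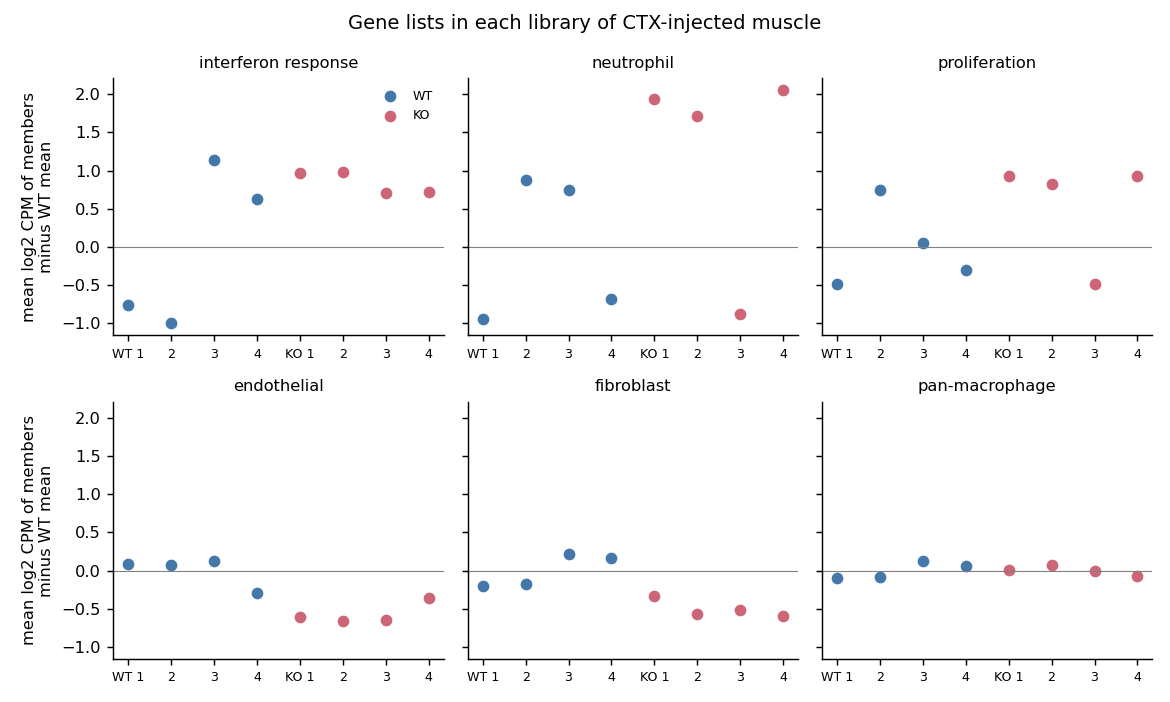
Mean log2 CPM of the tested members of 6 gene lists in each library of CTX-injected muscle, minus the mean of the 4 WT libraries. WT libraries 1 and 2 are low for interferon genes, KO library 3 departs from the other KO libraries for neutrophil and proliferation genes, and the KO libraries lie below the WT libraries for fibroblast and endothelial genes, while pan-macrophage genes stay near 0.

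Several granulocyte markers were higher in KO. Of 14 tested neutrophil markers, 8 were higher in KO at an unadjusted p under 0.05 (57.1%) and none lower, with a median log2 difference of 0.97 and no edgeR call, while DESeq2 called Cxcr2. The summed level was 492 to 1232 CPM in WT and 621 to 1448 CPM in KO, which overlapped, with WT library 3 above KO libraries 2 and 3, and no marker was at 0 in all 8 libraries. Ltf, lactoferrin of secondary granules, lay at 1.2, 26.3, 5.47 and 1.23 CPM in WT libraries 1 to 4 and 96, 57.6, 1.6 and 166 CPM in KO libraries 1 to 4. KO library 3 was close to WT libraries 1 and 4, and KO libraries 1, 2 and 4 were above all WT libraries. Mpo, myeloperoxidase of primary granules, lay at 0.723, 5.14, 3.95 and 0.833 CPM in WT libraries 1 to 4 and 20.5, 16.8, 0.32 and 15.6 CPM in KO libraries 1 to 4, with the same libraries apart. Cxcr2, the neutrophil chemokine receptor, was the 1 marker without overlap, at 1.36, 1.92, 2.6 and 1.88 CPM in WT libraries 1 to 4 and 3.72, 5.2, 3.89 and 6.53 CPM in KO libraries 1 to 4 (log2 1.32, edgeR adjusted p = 0.155). Leaving out single libraries gave 3 to 10 markers higher, with 10 without WT library 3, 4 without WT library 4 or KO library 2 and 3 without WT library 1 or KO library 1 or 4.

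Of 6 tested eosinophil markers, 2 were higher (33.3%) and none lower, with a median of 0.89. The count was 0 without WT library 1 or KO library 4, 1 without WT library 4 or KO library 1, 3 without WT library 3 or KO library 3, and 4 without KO library 2. Prg2, eosinophil major basic protein, lay at 2.44, 15.1, 8.82 and 2.5 CPM in WT libraries 1 to 4 and 19.8, 13.7, 1.97 and 34.9 CPM in KO libraries 1 to 4. KO library 3 was again the lowest KO library. The proliferation list had 25 of 27 tested members at a positive log2 difference, against 5748 of all 11473 tested genes, and a median of 0.48. At an unadjusted p under 0.05, 2 were higher (7.41%, near the 4.77% of all tested genes) and none lower. Without WT library 2 the number higher was 16 with a median of 0.82, without KO library 3 it was 10 with a median of 0.78, and without KO library 2 it was 1. Bub1, a spindle checkpoint kinase, lay at 0.271, 0.894, 0.325 and 0.438 CPM in WT libraries 1 to 4 and 1.69, 1.73, 0.411 and 1.92 CPM in KO libraries 1 to 4 (log2 1.56, edgeR adjusted p = 0.381). Whether the granulocyte and proliferation transcripts came from the same cells was not tested.

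Among macrophage identity genes, edgeR called Lyz2 alone. Of 16 pan-macrophage genes, 2 were higher (Fcgr1 and Mertk; 12.5%) and 2 lower (Lyz2 and Cd14; 12.5%) at an unadjusted p under 0.05, with a median of 0.05. Fcgr1, the high-affinity IgG receptor, lay at 210.1, 227, 288 and 273 CPM in WT libraries 1 to 4 and 309, 303, 318 and 306 CPM in KO libraries 1 to 4, without overlap (log2 0.31, edgeR adjusted p = 0.377). Of 12 monocyte genes, 3 were higher, such as Ly6c2 and Plac8 (25% in all), and 2 lower (Ly6c1 and Thbs1; 16.7%), with a median of -0.11. Without WT library 4 there were 4 lower. In the tissue-resident list 2 of 18 were lower (11.1%, against 5.30% of tested genes) and none higher. This count was 0 without WT library 1 or KO library 2 and with library totals only, there were 3 lower and 3 higher with voom, and without WT library 4 there were 4 higher and 1 lower. Muscle fibre markers were at the edge of detection, with a summed level of 5.13 to 6.93 CPM in WT and 4.69 to 7.07 CPM in KO, and Pax7 and Myog, of satellite cells and myoblasts, had no count in any of the 8 libraries.

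Few differences were found in central carbon metabolism or ribosomal protein genes. In the edgeR fit of all 8 libraries no member of the TCA cycle (28 tested), oxidative phosphorylation (36), glycolysis (20) or ribosomal protein (33) lists passed an unadjusted p under 0.05 in either direction, and their medians were 0.00, 0.01, 0.04 and -0.03. Glycolysis had 2 members higher with library totals only and with voom, 4 higher without WT library 3, and 2 lower without WT libraries 1 and 2, while the other 3 lists had at most 1 in any alternative. Pdha1, of pyruvate dehydrogenase, had a log2 difference of -0.13 (95% interval -0.28 to 0.03), Ndufa9, of complex I, 0.10 (-0.03 to 0.24), and Hk2, hexokinase 2, -0.40 (-0.83 to 0.02). Among 19 hypoxia genes 3 were lower (15.8%, against 5.30%) and none higher. Without WT library 3 there were 3 lower and 2 higher, with a median that went from -0.11 to 0.13, and without WT library 2 or KO library 4 there was 1 lower. Ndrg1 led the list, at 488, 496, 467 and 412 CPM in WT libraries 1 to 4 and 350.2, 348, 402 and 339.9 CPM in KO libraries 1 to 4, without overlap (log2 -0.37, edgeR adjusted p = 0.204, called by DESeq2). Of 23 cholesterol synthesis genes, 3 were higher (Pmvk, Lss and Tm7sf2; 13%) and none lower, with a median of 0.12. There were 6 higher without WT library 3 or with library totals only, 7 with voom, and 1 without WT library 1 or 2. In lipid handling, the cholesterol exporter gene Abcg1 lay at 35.9, 31.5, 27.2 and 49.9 CPM in WT libraries 1 to 4 and 59.5, 58.4, 63.3 and 66.8 CPM in KO libraries 1 to 4, without overlap (log2 0.78, 95% interval 0.43 to 1.13, edgeR adjusted p = 0.175, called by DESeq2 and voom).

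Normal muscle was used to ask whether these genotype differences were particular to injured muscle. The 20 leading genes were picked by their differences in injured muscle, and the same injured-muscle libraries entered the comparison. That choice alone favoured a larger difference in injured muscle, so calls of leading genes below are no independent support for it. In a fit over all 16 libraries, edgeR called no gene for the difference between the genotype effects (0% of 13649 tested, with 646 at an unadjusted p under 0.05), while DESeq2 called 48 and limma voom 11. The smallest adjusted p by edgeR among the 20 leading genes was 0.0818, for Lyz1 and for Igfbp7. Lyz1, Dcn, Igfbp7 and Plvap were called for this difference by both DESeq2 and voom, and Adamts1, Ptpro and Zfp53 by DESeq2 alone. Without KO library 5 of normal muscle edgeR called Dcn and Igfbp7. Lyz1 in normal muscle lay at 1220.4 ± 229 CPM in WT and 1334 ± 398 CPM in KO (SD, n = 4 each), and in injured muscle on the same scale at 73.7 ± 15.6 CPM in WT and 262 ± 16.8 CPM in KO, so that the log2 genotype difference was 0.13 in normal muscle. Lyz2 in normal muscle lay at 8686 ± 2402 CPM in WT and 6552 ± 3262 CPM in KO, with a log2 difference of -0.41. The stromal and vascular genes Dcn, Sparc, Adamts1, Plvap and Igfbp7, lower in KO in injured muscle, had log2 differences of 0.53, 0.46, 0.29, 0.70 and 0.70 in normal muscle. Their standard errors were 0.21, 0.27, 0.21, 0.27 and 0.17. The normal-muscle levels of each overlapped between the genotypes, and KO library 5 was the lowest KO library for each. Of the 8 normal libraries 3 came from females, by Xist above Y-linked genes, and the part of sex in the normal-muscle values was not tested.

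**Figure D5:**
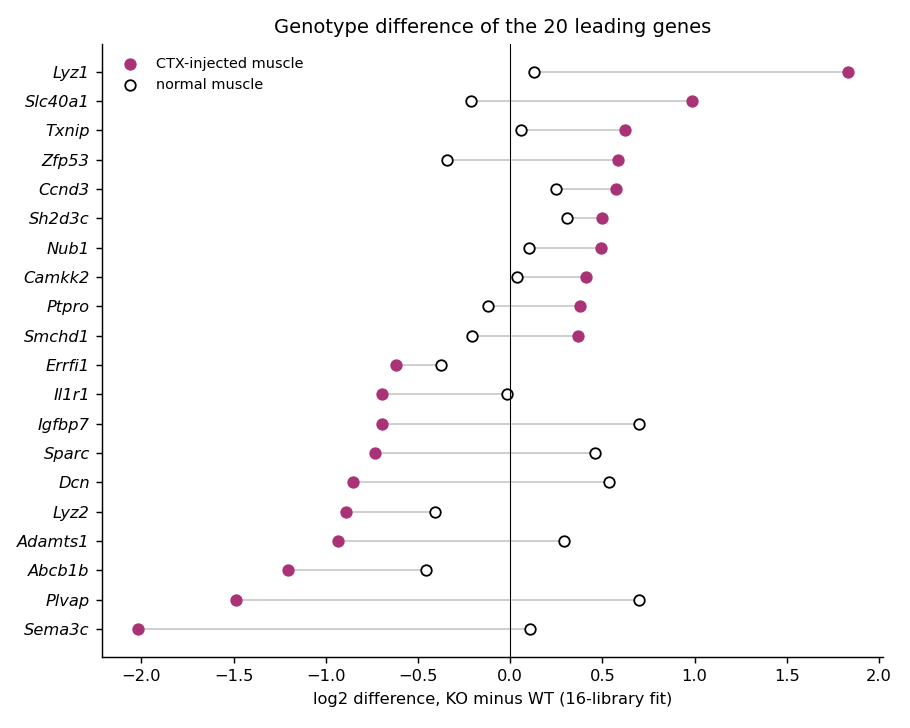
Log2 genotype difference (KO minus WT) of the 20 leading genes in CTX-injected muscle (filled) and in normal muscle (open), both from the fit over 16 libraries. Dcn, Sparc, Adamts1, Plvap and Igfbp7 lie below 0 in injured and above 0 in normal muscle, where their levels overlapped between the genotypes. No gene passed edgeR's test of the difference with all 16 libraries. The 20 genes were picked by their values in injured muscle.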

How the data were processed

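The authors deposited unnormalized integer counts, 1 row per gene symbol, in 1 table of 24421 symbols and 16 libraries. Per the labels' protocols, RNA of F4/80-sorted cells was extracted with the RNeasy Micro Kit (Qiagen), and libraries used SMART-Seq V4, which does not mark strand (where 2 genes overlap in opposite directions, their reads are not told apart). Per the submitters' processing notes HISAT2 2.1.0, featureCounts (Subread 1.6.2), cutadapt 1.18 and FastQC 0.11.7 were used with mm10. The counting annotation and the handling of reads mapping to several places are not given in the sources used here.

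The 4 KO and 4 WT libraries of CTX-injected muscle were fitted alone with edgeR 4.0.16 in R 4.3.3: filterByExpr by group, TMM factors, quasi-likelihood test, Benjamini-Hochberg adjustment over all tested genes, threshold 0.05. The interaction used all 16 libraries. Exact two-sided permutation tests were run on single genes (scipy 1.17.1). The alternatives were RLE factors, library totals only, DESeq2 1.42.0, voom with quality weights (limma 3.58.1), no filter, 5 CPM in 4 libraries, a 16-library fit, a replicate block, each library left out, and WT libraries 1 and 2 left out together, the last chosen after seeing the data. The code was tested on simulated counts.

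Named genes were Glud1, Glul, all called genes, the 10 of smallest p in each direction whose groups did not overlap and whose higher mean reached 5 CPM, the top 3 by p from each study list and the top 1 from each other programme list, without predicted genes. Others named were chosen after their values were seen. A few genes that this rule or a list would name are not reported here. The comparison, 37 gene lists and tests were chosen with earlier results of these data known. Coordinates and transcripts are from GENCODE M21 (GRCm38, which is mm10), where 23376 symbols matched, and promoters from RefSeq (GRCm38.p6). Replicate numbers occur in both genotypes, but no label ties them to a shared mouse, litter or day.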

Additional observations from a re-analysis of the deposited data

Results flagged for a closer look

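Among 134 groups of 4 libraries (52 named genes and 15 summed lists in each genotype), 13 had 1 library far from the other 3, by a gap of more than 0.829 of the group's whole range. Chance alone gives about 1 in 20. KO library 3 was the highest of its group for Sparc (15.04 CPM, others 12.7 to 12.9) and Ndrg1 (402 CPM, others 339.9 to 350.2), and the lowest for Bub1 (0.411 CPM, others 1.69 to 1.92). KO library 4 was the highest for Cxcl9 (11.3 CPM, others 0.320 to 0.638) and the lowest for Areg (23.8 CPM, others 29.3 to 29.6). KO library 1 was the highest for Il4ra (459 CPM, others 414 to 418) and for the summed fibroblast list (86.5 CPM, others 73.8 to 74.97). KO library 2 was the lowest for the summed tissue-resident macrophage list (3388 CPM, others 4087 to 4135). WT library 4 was the lowest for Il4ra (451 CPM, others 533 to 540.3) and the highest for Ctsk (17.7 CPM, others 12.9 to 13.5) and Ndufa9 (76.5 CPM, others 67.8 to 68.9). WT library 3 was the highest for Ptpro (63.6 CPM, others 54.7 to 56.1) and the lowest for the summed T and NK cell list (149.6 CPM, others 206 to 217).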

How the results depend on the processing

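The number of genes called higher in KO was 44 with DESeq2, 12 with limma voom and 2 without the low-count filter, and that of genes called lower was 60, 7 and 5. The fit over 16 libraries and the fit with the replicate number as a block each gave 0 genes lower and 1 higher (Lyz1), and leaving out WT libraries 1 and 2 together gave 4 lower and 1 higher. Leaving out single libraries gave 1 to 8 genes higher and 0 to 30 lower, with 6 and 4 without WT library 3 and the most, 8 and 30, without WT library 4. For the difference between injured and normal muscle DESeq2 called 48 genes, limma voom 11, and edgeR 0 to 2 with single libraries left out. The cause of these changes was not tested. The sign held for 51 of 52 named genes under all 17 alternatives, while Oat went from -0.07 to 0.00026 with library totals only, which moved the median of all genes by 0.07 on the log2 scale. Apart from Glud1 and Glul, the named genes were picked by p in these same libraries. A stable sign was favoured by that choice and is no independent support. Same-numbered WT and KO libraries correlated at -0.18, -0.04, -0.15 and -0.01, and 0 libraries correlated best with their own number, so the numbers were not taken as pairs and the block result is no measure of a weaker effect. Glud1 was not called under any alternative. Values under about 1 CPM rest on few counts and have wide relative errors.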
